A study of Mus musculus with 12 samples.

Results

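The DNA replication machinery was described here through 51 mouse genes, listed by symbol for their part in copying nuclear DNA and matched by Ensembl ID to 51 of the 56941 gene IDs in the count table. No measured value served as a rule for that list, but it was chosen with earlier results of these data known. All 51 were expressed well enough to be tested. The samples were RAW264.7 cells, a transformed murine macrophage line, and the question was how a sustained compressive load, of the kind found in solid tumours, changes such cells. Compressed macrophages (n = 6) spent 24 h under an agarose cushion carrying a weight that applied 0.14 kPa, and uncompressed controls (n = 6) spent 24 h under the cushion alone. The cells of both groups grew on porous inserts, and no genetic change is described for either, so all results are those of 1 unmodified line. Whether each sample was its own culture is not stated, and the p-values below therefore rest on sample-to-sample spread that may be partly technical.

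A cell copies its genome once per cycle. In G1 the origin recognition complex and its loading factors place the MCM helicase on DNA, in S phase kinases and firing factors switch the helicase on, and primase, polymerases, a sliding clamp and a ligase then copy both strands at the moving fork. Many genes of this machinery are transcribed mainly in late G1 and S phase under E2F transcription factors. Their summed RNA in a culture therefore depends in part on the share of cells in those phases, which was not measured here. RAW264.7 cells divide in culture, whereas most tissue macrophages divide rarely.

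Total counts were 33460807 to 39103987 in compressed libraries and 37948795 to 40463545 in control libraries. The macrophage markers were present, at a summed 7913 to 9786 CPM (counts scaled to a common library total) in compressed cells and 6428 to 6876 CPM in controls. Of these 9 markers 4 were called higher and 3 lower, and their part in the results below was not tested. The summed fibroblast, epithelial and endothelial markers reached at most 1.16 CPM in any library, and Col3a1, a fibroblast collagen, and Cd3e, a T cell marker, were at 0. The mitochondrial messenger RNAs held 2.62 to 3.17% of counts in compressed libraries and 2.77 to 3.19% in control libraries. Compressed replicate 6 stood apart: across genes its log2 CPM correlated at 0.968 to 0.975 with the other compressed libraries, which reached 0.996 among themselves. Genes with short transcripts read higher in it and genes with long transcripts lower, and a part of the results is given with and without it. A fold change or median given alone includes replicate 6 and may depend on it.

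Transcripts of the machinery were lower in compressed macrophages almost without exception. These data hold RNA and no protein, and complexes and enzymes named below stand for the transcripts of their genes. The 51 genes together took 0.256 to 0.277% of the counts in compressed libraries and 0.512 to 0.531% in control libraries, and these ranges lay far apart. By edgeR's quasi-likelihood test, with p-values adjusted over all tested genes and a limit of 0.05, 50 of the 51 fell, where 21.9% of all 15001 tested genes were called lower. None rose (0 by edgeR, 0 at an unadjusted p under 0.05, 0 by DESeq2), where 24.5% of all tested genes were called higher. Rpa3, which encodes the small subunit of the single-strand DNA binding complex RPA, did not pass. The median log2 fold change, compressed over control, was -0.94 over the 51 genes and 0.02 over all tested genes. In bulk RNA a smaller share of cells in S phase and less of each transcript per cell cannot be told apart.

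The fall was seen in every compressed library. Set against the mean of the controls, the median of the 51 log2 levels was -0.97, -0.84, -0.86, -0.96, -0.99 and -0.84 in compressed replicates 1 to 6, and between -0.03 and 0.03 in each control. In compressed replicates 1 to 5 all 51 genes lay below the control mean, and in replicate 6 it was 49 of 51. For 48 genes the highest compressed library lay below the lowest control, which held for 17% of all tested genes. The exceptions were Gmnn, Rpa3 and Dut, in each of which compressed replicate 6 alone reached the control range. For 18 genes the call came with a log2 fold change under -1, which 1.44% of all tested genes had.

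**Figure D1:**
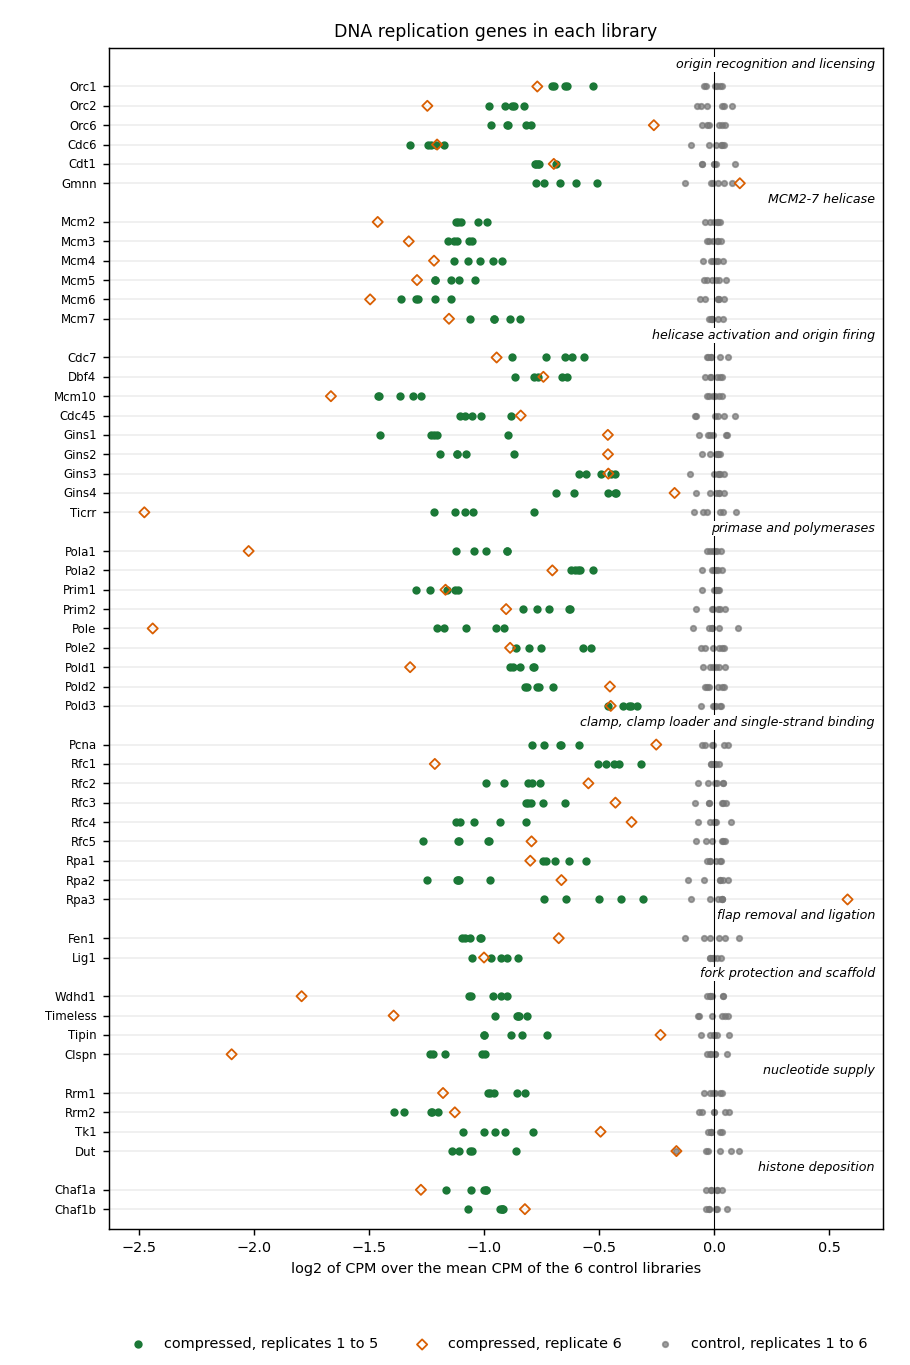
Level of each of the 51 genes in each library, as the log2 of its CPM over the mean CPM of the 6 controls (horizontal axis), grouped by role down the page; green points are compressed replicates 1 to 5, open orange diamonds compressed replicate 6 and grey points the controls. In 48 genes every compressed library lies left of every control; the diamonds for Gmnn, Rpa3 and Dut reach the controls.

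Without compressed replicate 6 no gene was left uncalled. All 51 were then called lower, where 32.2% of all tested genes were called lower in that comparison. The groups of all 51 did not overlap. Log2 fold changes then ran from -1.37 to -0.39, and 20 were under -1. The shares of all tested genes with groups apart, or under -1, were not computed for that comparison.

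The stretches of DNA just upstream of 4 of these genes are shown because they span the range of change: Mcm10 fell most, Mcm6 fell most within the MCM helicase, Gins3 fell little and Rpa3 did not pass the test. Each is the 160 bases before the annotated start site on the gene's own strand, from RefSeq on GRCm38.p6. Capitals mark an E2F motif (TTTCCCGC, TTTGGCGC, TTTCGCGC or TTTGCCGC), a CCAAT box (CCAAT) or a cell cycle homology region (TTTGAA), each searched on both strands.
Mcm10, minus strand, chr2:5012792-5012951: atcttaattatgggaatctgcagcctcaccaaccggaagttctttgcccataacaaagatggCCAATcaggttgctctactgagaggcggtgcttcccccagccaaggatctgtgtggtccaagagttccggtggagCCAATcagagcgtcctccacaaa
Mcm6, minus strand, chr1:128359706-128359865: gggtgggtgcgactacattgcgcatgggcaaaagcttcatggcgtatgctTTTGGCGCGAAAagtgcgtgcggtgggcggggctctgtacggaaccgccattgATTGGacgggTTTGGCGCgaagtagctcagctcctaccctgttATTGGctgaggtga
Gins3, plus strand, chr8:95633399-95633558: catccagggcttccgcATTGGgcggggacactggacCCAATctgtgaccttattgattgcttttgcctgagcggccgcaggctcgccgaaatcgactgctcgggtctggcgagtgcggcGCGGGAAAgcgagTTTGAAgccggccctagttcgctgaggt
Rpa3, minus strand, chr6:8259142-8259301: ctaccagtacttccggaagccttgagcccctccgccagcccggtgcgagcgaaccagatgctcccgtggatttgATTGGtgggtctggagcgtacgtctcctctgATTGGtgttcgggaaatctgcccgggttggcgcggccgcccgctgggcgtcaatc

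Mcm6 held 3 E2F matches, of which 2 overlap, and Gins3 held 1, while Mcm10 and Rpa3 held none of these letters and each had CCAAT boxes. A promoter window of 300 bases, running 250 before to 50 after the start site, was at hand for 42 of the 51 genes. The E2F motif was in 15 of these 42 (35.7%), against 4.75% of the 9631 tested genes with a window and 2.6% of all 27025 genes with a window. CCAAT was in 25 of 42 (59.5%), against 43.2% of the tested genes and 41.1% of all genes. TTTGAA was in 7 of 42 (16.7%), against 14.9% of the tested genes and 20.2% of all genes. The median log2 fold change was -0.95 over the 15 genes with an E2F match and -0.94 over the 27 without, and the ranges of these sets overlapped. These are matches of letters in 1 window per start site and not sites shown to be bound.

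Origin licensing genes all fell, 6 of 6, with a median log2 fold change of -0.75. Cdc6, which with Cdt1 loads the MCM helicase, had 21.1, 22.6 and 23.4 CPM (lowest, median and highest) in compressed cells, against 49.3, 53.5 and 54.4 CPM in controls. It fell most of the 6, to 0.427 of the control level (log2 fold change -1.23, SE 0.042, adjusted p = 1.74e-10 from edgeR). Cdt1 itself ranged from 69.4 to 74.1 CPM in compressed cells and from 115 to 127 CPM in controls, a log2 fold change of -0.74 (SE 0.041). Of the origin recognition complex, which marks where replication can begin, Orc1 changed by -0.66 (SE 0.047), Orc2 by -0.95 (SE 0.066) and Orc6 by -0.75 (SE 0.10) on the log2 scale.

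Geminin, encoded by Gmnn, binds Cdt1 and blocks relicensing, and had the smallest change of this role over all libraries. Gmnn had 31.1, 34.3 and 57.5 CPM in compressed cells, against 48.8, 53.5 and 56.1 CPM in controls, a log2 fold change of -0.50 (SE 0.13, adjusted p = 0.00626 from edgeR). The highest compressed value was replicate 6, above all 6 controls, and the other compressed libraries stopped at 37.4 CPM, below every control. Without replicate 6 the log2 fold change of Gmnn was -0.66 (SE 0.044), and the smallest of the role was then that of Orc1 at -0.64 (SE 0.038).

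The MCM2-7 helicase, the ring that unwinds DNA, fell as a whole and to a like extent. All 6 subunits passed, with a median log2 fold change of -1.13 and a range of only -1.29 to -0.97. Mcm6 fell most, with 102, 118 and 130 CPM in compressed cells against 276, 291 and 296 CPM in controls (log2 fold change -1.29, SE 0.056, adjusted p = 1.17e-09 from edgeR). Mcm7 fell least, with 83.2, 95.4 and 103 CPM in compressed cells against 182, 184 and 190 CPM in controls (log2 fold change -0.97, SE 0.053, adjusted p = 6.92e-09 from edgeR). Neither gene had overlapping groups, and in both the lowest compressed value was replicate 6. The rest lay between, at -1.17 for Mcm5 (SE 0.048), -1.14 for Mcm3 (SE 0.049), -1.13 for Mcm2 (SE 0.068) and -1.05 for Mcm4 (SE 0.053). Without replicate 6 the median over the ring was -1.09.

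The factors that switch the helicase on all fell too, 9 of 9, but unevenly. Mcm10, which binds the helicase as the fork is activated, fell most of all 51 genes. It had 22.4, 26.7 and 29.4 CPM in compressed cells, against 69.5, 71.0 and 72.8 CPM in controls, 62.5% lower (log2 fold change -1.42, SE 0.061, adjusted p = 9.89e-10 from edgeR). Cdc45, which joins the MCM ring and the GINS complex in the working helicase, had 23.7 to 28.5 CPM in compressed cells and 48.2 to 54.3 CPM in controls, a log2 fold change of -0.99 (SE 0.057). The kinase that triggers firing was lower by similar amounts in both subunits, -0.73 (SE 0.064) for Cdc7 and -0.74 (SE 0.045) for its activator Dbf4. Ticrr, a firing factor, changed by -1.20 (SE 0.19), and compressed replicate 6 read 7.64 CPM beside 18.3 to 24.7 CPM in the other compressed libraries and 40.1 to 45.4 CPM in controls. Without that library Ticrr was at -1.04 (SE 0.056).

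The 4 GINS subunits, which form 1 complex in equal parts, divided into pairs. Gins1 (log2 fold change -1.04, SE 0.13) and Gins2 (-0.95, SE 0.11) fell about as far as the MCM genes, and Gins3 (-0.49, SE 0.044) and Gins4 (-0.45, SE 0.073) fell less. Gins4, the least changed of the firing genes over all libraries, had 22.4, 26.5 and 32.0 CPM in compressed cells, against 34.1, 36.4 and 37.1 CPM in controls (adjusted p = 1.66e-04 from edgeR). Gins1 had 9.87, 11.7 and 19.6 CPM in compressed cells, against 25.8, 26.8 and 28.1 CPM in controls. The groups of all 4 were apart. Without replicate 6 the pairs stood further from each other, at -1.19 for Gins1 and -1.07 for Gins2 and at -0.50 for Gins3 and -0.52 for Gins4. In the mouse annotation 2758 bases of Gins2 exons lie opposite exons of Gse1, and because the strand setting of the counting is not given, their reads cannot be told apart.

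**Figure D2:**
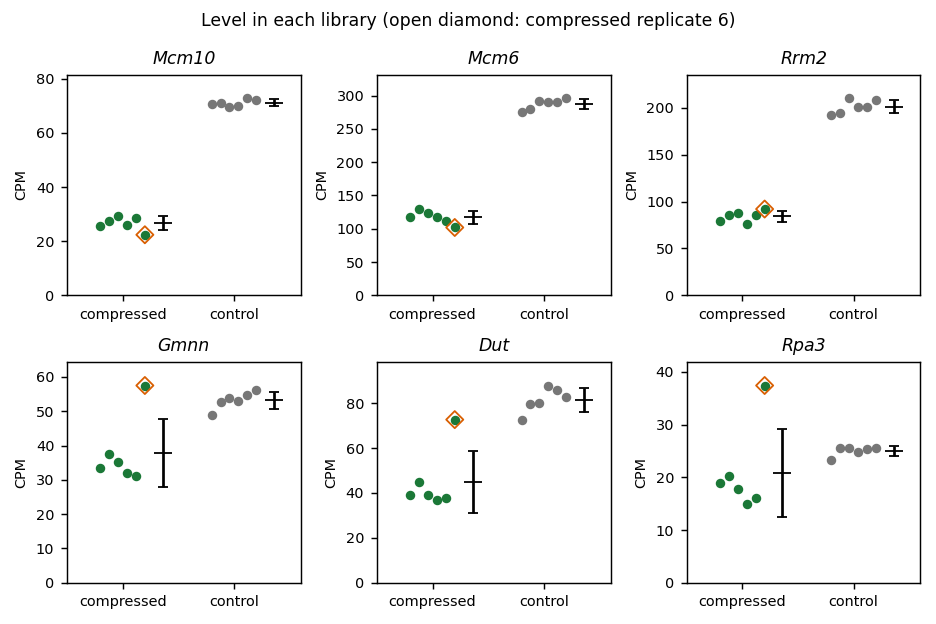
CPM (vertical axis, from 0) in each of the 6 compressed libraries (green, left) and 6 controls (grey, right) for 6 genes, with the mean and SD of each group in black and compressed replicate 6 ringed by a diamond. Mcm10, Mcm6 and Rrm2 are apart in all libraries, while in Gmnn, Dut and Rpa3 replicate 6 alone reaches the controls.

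Primase and the replicative polymerases fell in all 9 genes, with a median log2 fold change of -0.74. Pole, the catalytic subunit of polymerase epsilon on the leading strand, fell most over all libraries, with 16.7, 41.6 and 48.1 CPM in compressed cells against 85.2, 90.0 and 97.6 CPM in controls (log2 fold change -1.22, SE 0.19, adjusted p = 1.30e-04 from edgeR). Its lowest value was replicate 6, and without that library Pole was at -1.06 (SE 0.048), behind Prim1 at -1.18 (SE 0.035). Pold3, an accessory subunit of the lagging strand polymerase delta, changed least, with 41.4, 43.8 and 45.2 CPM in compressed cells against 54.8, 57.2 and 58.3 CPM in controls (log2 fold change -0.39, SE 0.039, adjusted p = 1.82e-06 from edgeR). Even this difference left a gap between the groups.

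Within each polymerase the catalytic subunits had larger falls than their partners. Among the genes of the 51, polymerase delta's catalytic Pold1 was at -0.90 (SE 0.078) and its accessory Pold2 at -0.71 (SE 0.061), and polymerase epsilon's Pole2 was at -0.73 (SE 0.067). Much of the gap between Pold1 and Pold2 rested on compressed replicate 6. Without that library Pold1 was at -0.84 (SE 0.029) and Pold2 at -0.78 (SE 0.031). In polymerase alpha-primase, which lays the primers, the catalytic genes Pola1 (-1.12, SE 0.15) and Prim1 (-1.18, SE 0.042) fell more than the partners Pola2 (-0.60, SE 0.040) and Prim2 (-0.74, SE 0.053). Prim1 had 18.4 to 20.9 CPM in compressed cells and 43.5 to 45.8 CPM in controls. For Pola1, replicate 6 read 17.8 CPM beside 33.3 to 38.8 CPM in the other compressed libraries, and without it the gene was at -0.99 (SE 0.036).

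The clamp, its loader and the single-strand binding complex fell in 8 of 9 genes, with a median log2 fold change of -0.70 that was nearer 0 than that of the helicase. Pcna, the sliding clamp that tethers polymerases, had 196, 214 and 285 CPM in compressed cells, against 327, 338 and 354 CPM in controls, a log2 fold change of -0.61 (SE 0.079). Per transcript length it was the most abundant of the 51 on average in both groups, at 314 TPM in compressed cells and 522 TPM in controls. Of the clamp loader, Rfc5 fell most, with 29.1, 33.9 and 40.4 CPM in compressed cells against 66.3, 70.7 and 72.3 CPM in controls (log2 fold change -1.03, SE 0.069, adjusted p = 4.37e-08 from edgeR). Rfc4 was at -0.87 (SE 0.11), Rfc2 at -0.79 (SE 0.065) and Rfc3 at -0.70 (SE 0.066).

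Rfc1, the large subunit of the loader, was the least changed gene called in this role. It had 54.8, 92.8 and 102 CPM in compressed cells, against 126, 127 and 129 CPM in controls (log2 fold change -0.53, SE 0.11, adjusted p = 0.00169 from edgeR). The lowest value was again replicate 6, and without it Rfc1 was at -0.43 (SE 0.030). The exons of Rfc2 share 952 bases with those of Lat2 on the other strand, a gene whose summed counts exceeded its own.

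The 3 RPA subunits, which coat exposed single strands, changed by different amounts. Rpa2 fell by 1.02 on the log2 scale (SE 0.084) and Rpa1 by 0.69 (SE 0.047), both with groups apart. Rpa3 had 15.0, 18.3 and 37.4 CPM in compressed cells, against 23.3, 25.5 and 25.6 CPM in controls, a log2 fold change of -0.26 (SE 0.18, adjusted p = 0.271 from edgeR). Its highest value was replicate 6, while compressed replicates 1 to 5 lay between 15.0 and 20.2 CPM, below all controls. Without replicate 6 Rpa3 passed, at -0.51 (SE 0.058, adjusted p = 2.03e-07 from edgeR), and Rpa3 has the shortest transcript of the 51 at 670 bases.

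Flap removal and ligation, which join the pieces of the lagging strand, fell in both genes. Fen1, the flap endonuclease, had 52.1, 54.2 and 69.7 CPM in compressed cells, against 102, 111 and 120 CPM in controls (log2 fold change -0.98, SE 0.073, adjusted p = 1.21e-07 from edgeR). Lig1, the ligase, had 73.6, 79.2 and 84.5 CPM in compressed cells, against 151, 152 and 156 CPM in controls (log2 fold change -0.95, SE 0.043, adjusted p = 1.57e-09 from edgeR). Over all libraries these changes differed by less than their standard errors, and the groups of each were apart. Replicate 6 was the highest compressed library for Fen1. Without it Fen1 was at -1.06 (SE 0.037) and Lig1 at -0.94 (SE 0.032), further apart than either standard error.

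Fork protection genes, which keep helicase and polymerase together and relay stalling to the checkpoint, fell in 4 of 4 with a median of -1.02. Clspn, which encodes the checkpoint adaptor claspin, had 18.6, 34.8 and 39.9 CPM in compressed cells, against 78.0, 79.3 and 82.7 CPM in controls (log2 fold change -1.25, SE 0.14, adjusted p = 7.03e-06 from edgeR). Tipin had 46.2, 50.9 and 78.6 CPM in compressed cells, against 88.7, 92.3 and 96.6 CPM in controls (log2 fold change -0.75, SE 0.11, adjusted p = 8.64e-05 from edgeR). Replicate 6 was the extreme in each, lowest for the long Clspn transcript and highest for the short Tipin transcript. Without it Clspn was at -1.12 and Tipin at -0.89. Timeless, the partner of Tipin, changed by -0.94 (SE 0.085), and Wdhd1, which links the helicase to polymerase alpha, by -1.09 (SE 0.12).

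Nucleotide supply genes fell in 4 of 4, with a median of -0.91. Rrm2, the subunit of ribonucleotide reductase that is made mainly in S phase, had 76.6, 85.6 and 92.0 CPM in compressed cells, against 192, 201 and 210 CPM in controls (log2 fold change -1.25, SE 0.052, adjusted p = 7.49e-10 from edgeR). Its partner Rrm1, the large subunit, was at -0.96 (SE 0.057). Tk1, the salvage kinase for thymidine, was at -0.86 (SE 0.084). Dut, which encodes the enzyme that clears dUTP, had 37.0, 39.1 and 72.7 CPM in compressed cells, against 72.6, 81.5 and 87.9 CPM in controls (log2 fold change -0.85, SE 0.15, adjusted p = 3.34e-04 from edgeR). Only replicate 6 of Dut touched the control range, and without it the log2 fold change was -1.04 (SE 0.050).

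Histone deposition behind the fork was represented by both large subunits of CAF-1. Chaf1a averaged 57.4 ± 4.51 CPM in compressed cells, with a highest value of 60.9 CPM, against 121 ± 2.08 CPM in controls, with a lowest of 118 CPM (log2 fold change -1.08, SE 0.054, adjusted p = 3.59e-09 from edgeR). Chaf1b had 21.3, 23.6 and 25.3 CPM in compressed cells, against 43.7, 44.6 and 46.5 CPM in controls (log2 fold change -0.93, SE 0.044, adjusted p = 2.52e-09 from edgeR). Neither had overlapping groups. Exons of 17 of the 51 genes overlap a gene on the other strand in the annotation used, among them Chaf1a with Ubxn6 over 1862 bases and Fen1 with Gm10143 over 1908 bases. Gm10143 had only 165 summed counts, beside 38482 for Fen1. Some opposite genes had more counts than the gene they overlap, among them Vps35 (94382, against 15000 for Orc6, over 114 bases). Others were Eif4a2 (80166, against 14212 for Rfc4, over 175 bases) and Wsb2 (50100, against 23966 for Rfc5, over 499 bases).

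Because subunits of a complex act in fixed proportion, the balance among their transcripts was measured within each library, as the log2 level of 1 subunit minus the mean of the others, which does not depend on scaling between libraries. Of 35 such ratios in 12 complexes, 22 differed between the groups at an adjusted p of 0.05 or less by an exact two-sided permutation test over libraries, adjusted over the 35. The partners were the subunits among the 51 genes only, which leaves out Orc3, Orc4 and Orc5, Pole3 and Pole4, Pold4, and Rbbp4 of CAF-1. The smallest p the 6 against 6 design allows is 0.00216. In 15 ratios the groups did not overlap, and in 25 they did not without replicate 6. Within a complex a gain of any subunit lowers the ratios of its partners. The ratios are therefore not independent, and these counts are not counts of separate changes. How often ratios among other genes differ was not computed.

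The MCM ring kept its balance within narrow limits. Mcm6 fell against the rest of the ring by 0.20 and Mcm7 gained 0.18 (exact permutation p = 0.00216, adjusted p = 0.00505 for each). The ratios of Mcm2 (-0.01), Mcm3 (-0.02), Mcm4 (0.09) and Mcm5 (-0.05) changed by under 0.1, of which that of Mcm4 passed the exact permutation test (adjusted p = 0.0241). Other ratios under 0.1 were those of Orc6 (0.03), Pold2 (-0.06), Rfc2 (-0.00), Rpa1 (-0.01), Timeless (0.08) and Cdc7 over Dbf4 (0.01), none of which passed. Several of these were near 0 only with replicate 6: without it Pold2 was at -0.16, Orc6 at -0.11 and Timeless at 0.14, each with groups apart, and Rpa1 at 0.14 with groups that overlapped.

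GINS, polymerase delta and RPA shifted more. Against its 3 partners Gins1 stood at -0.76 ± 0.22 in compressed cells and -0.33 ± 0.05 in controls (SD, n = 6 each, log2 scale), a difference of -0.43 (exact permutation p = 0.00216, adjusted p = 0.00505). Gins4 moved the other way by 0.38 at the same adjusted p, and Gins3 by 0.34 (exact permutation, adjusted p = 0.0227), or 0.43 without replicate 6. Pold3 stood at -0.27 ± 0.02 in compressed cells and -0.69 ± 0.02 in controls (SD, n = 6 each), over Pold1 and Pold2, a difference of 0.42 that stayed at 0.42 to 0.43 with any library left out. With Pold4, which rose, among the partners Pold3 instead lost 0.20 (exact permutation, adjusted p = 0.00399). In RPA, Rpa2 lost 0.52 and Rpa3 gained 0.53 against their partners, each with groups apart, and without replicate 6 these were -0.52 and 0.37.

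**Figure D3:**
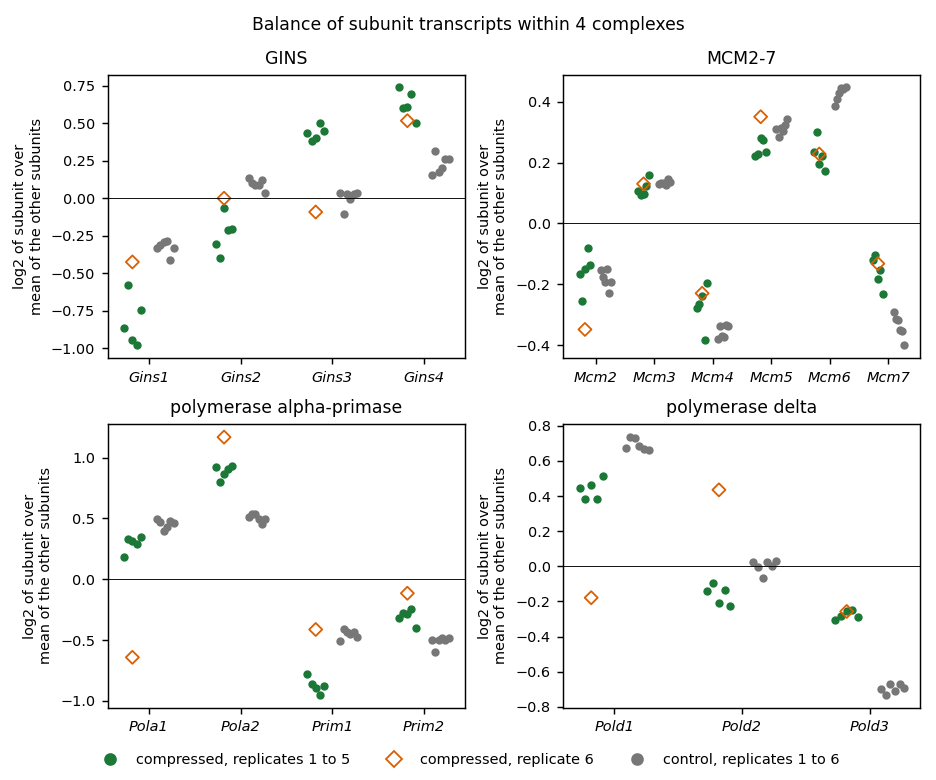
Log2 level of each subunit minus the mean of the other subunits of its complex (vertical axis), in compressed libraries (green, with replicate 6 as an open diamond, left) and controls (grey, right), for 4 complexes. Gins3 and Gins4 gain and Gins1 and Gins2 lose in compressed cells, the MCM ratios move by 0.20 or less, and Pola2 and Pold3 gain over the partners shown, which do not include Pold4.

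In the polymerases the shift ran against the catalytic subunits. Pola1 lost 0.32 and Pola2 gained 0.42 within polymerase alpha-primase, and Pold1 lost 0.36 within polymerase delta (exact permutation, adjusted p = 0.00505 for each). Without replicate 6 these were -0.16 for Pola1, 0.38 for Pola2 and -0.26 for Pold1, and the groups stayed apart. In polymerase delta the loss was not confined to the catalytic subunit, as the accessory Pold2 was at -0.16 without replicate 6. With Pold4 among the partners, over all libraries, Pold1 was at -0.89 and Pold2 at -0.63. Prim1 lost 0.34 (exact permutation, adjusted p = 0.0227) and Prim2 gained 0.24 (exact permutation, adjusted p = 0.00505). Pole over Pole2 changed by -0.56 (exact permutation, adjusted p = 0.00947), the largest of the 35, but was -0.36 without replicate 6. Of the rest, Clspn lost 0.42 within the fork protection genes, or 0.25 without replicate 6, and Rfc5 lost 0.30 within the clamp loader.

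Transcript length went with the spread among compressed libraries. Against the mean of compressed replicates 1 to 5, replicate 6 was the highest library for 20 of the 51 genes, the lowest for 24 and within their range for 7. It was the highest for 14 of the 17 genes with transcripts under 2000 bases and the lowest for 11 of the 13 over 4000 bases. The gap and the log2 length had a Pearson correlation of -0.80 and a Spearman correlation of -0.79 over the 51 genes, which share the same libraries and are not independent. Over all genes the trend in replicate 6 was 0.47 at about 1 kilobase and -0.50 at the long end, and within 0.11 of 0 in each other library. With this trend removed from every library, 51 of 51 genes were called lower, Rpa3 included. Calls also rose among tested genes in general. With the trend removed 4004 of 14647 were lower and 4332 higher, against 3283 and 3677 of 15001 with it left in.

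**Figure D4:**
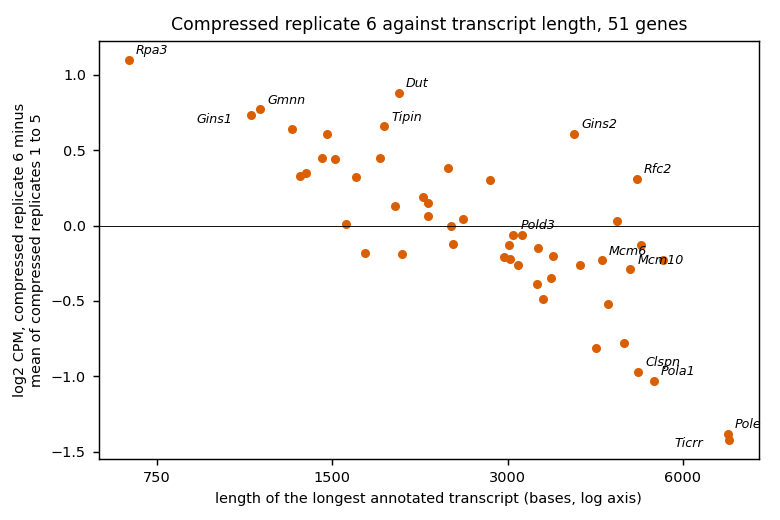
Log2 CPM of compressed replicate 6 minus the mean of compressed replicates 1 to 5 (vertical axis) against the length of the longest annotated transcript (horizontal axis, log scale) for the 51 genes. Rpa3 at 670 bases lies highest at 1.10, and Pole and Ticrr, the longest, lie lowest at -1.38 and -1.42.

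Other genes of nuclear replication followed, less uniformly. Of 50 further genes for licensing, accessory subunits, topoisomerases, nucleotide synthesis and chromatin assembly, 38 were called lower (76.0%, against 21.9% of all tested genes), 1 higher (2.00%, against 24.5%) and 11 not, with a median log2 fold change of -0.60. Recql4, a helicase used at origins, fell most at -1.32 (SE 0.13, adjusted p = 1.62e-06 from edgeR), and was at -1.21 without replicate 6. Pold4, the smallest subunit of polymerase delta, was the 1 gene that rose, at 1.07 (SE 0.10, adjusted p = 1.45e-06 from edgeR), and without replicate 6 it was at 0.96. The origin recognition subunits outside the 51 had log2 fold changes near 0, at -0.03 for Orc3 (SE 0.048), 0.05 for Orc4 (SE 0.062) and 0.03 for Orc5 (SE 0.044), none of which passed. Of the 5 translesion polymerase genes, Polh fell (-0.48, SE 0.061, adjusted p = 2.15e-05 from edgeR), and Polk (0.05), Poli (-0.09), Rev1 (-0.20) and Rev3l (-0.19) did not pass. Without replicate 6, 40 of the 50 were called lower, Rev1 now among them (-0.11), where 32.2% of all tested genes were, and 3 higher, the further ones being Top2b (0.10) and Polk (0.11).

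Replication of the mitochondrial genome uses largely its own enzymes, and the genes listed for it moved both ways. Of 18, 8 were called lower (44.4%, against 21.9% of all tested genes), 4 higher (22.2%, against 24.5%) and 6 not, with a median log2 fold change of -0.11. Without replicate 6, 11 of the 18 were called lower, where 32.2% of all tested genes were. In that comparison 5 were called higher, where 5117 of 15117 tested genes were. Mgme1, an exonuclease of mitochondrial DNA, fell most at -0.56 (SE 0.052, adjusted p = 1.06e-06 from edgeR). The 4 that rose were Dguok (0.68, SE 0.089) and Tk2 (0.47, SE 0.042), which supply deoxynucleotides inside mitochondria, Slc25a36 (0.31, SE 0.050), a mitochondrial carrier, and Primpol (0.24, SE 0.071), a primase-polymerase. Tk2 carries out in mitochondria the reaction that Tk1 carries out in the cytosol, and the cytosolic gene fell.

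**Figure D5:**
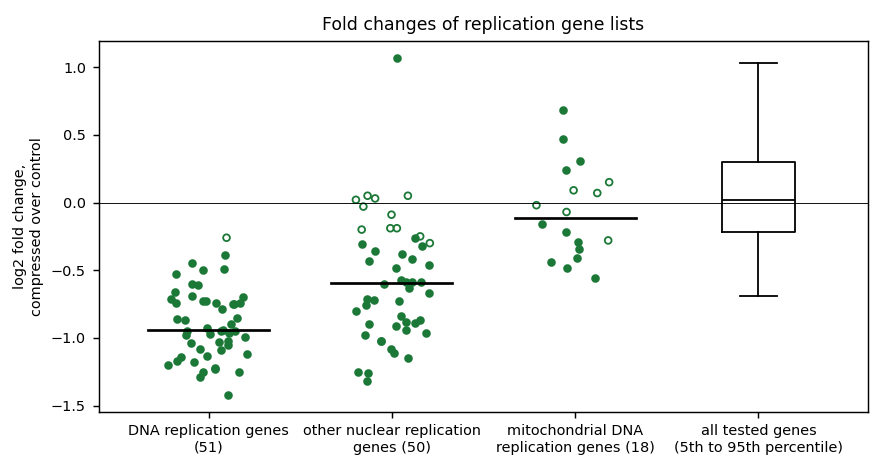
Log2 fold change, compressed over control (vertical axis), of the 51 DNA replication genes, 50 other nuclear replication genes and 18 mitochondrial DNA replication genes (filled where called, open where not, bars at the medians), beside a box of all tested genes with whiskers at the 5th and 95th percentiles. The medians are -0.94, -0.60, -0.11 and 0.02.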

How the data were processed

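RNA of 12 samples of RAW264.7 cells was extracted, enriched for mRNA and made into directional libraries. Reads were aligned by the authors with STAR 2.7.2, for which their processing notes name GRCm39, and the authors deposited raw counts per Ensembl gene, 1 column per library. The counting program, its strand setting and the annotation release are each not given in the sources used here. No position was taken from the counts. Names (51948 of 56941 IDs, holding 99.5% of counts), exon overlaps and lengths of the longest transcript came from GENCODE M21 on GRCm38, and promoters from RefSeq on GRCm38.p6.

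Genes were kept by filterByExpr (minimum count 10, 15001 genes), scaled by TMM and tested with the quasi-likelihood F test of edgeR 4.0.16 (limma 3.58.1, R 4.3.3) on condition alone, with Benjamini-Hochberg adjustment over all tested genes and calls at 0.05 or less. CPM are counts over the TMM-scaled library size, on edgeR's usual scale. The SE was derived from the fold change and F (the size of the log2 fold change divided by the root of F), so it restates that test. Subunit ratios used log2 CPM with a prior count of 2 and an exact permutation test over libraries in Python 3.11.15. Levels per length (TPM) were computed over the tested genes with a length. The 51 genes had 288 to 10732 counts per compressed library and 656 to 13757 per control library, and the spread between libraries was under the counting error for 1 gene in compressed and 10 genes in control libraries. The edgeR and DESeq2 fits and the exact permutation test over libraries were tested on simulated data, and the other steps were not.

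In each role the called genes with the largest and the smallest change, and every gene not called, are given in full. The 51 genes, the other lists, the ratios and this rule were chosen with earlier results of these data known. Alternatives were RLE factors, library size alone, DESeq2 1.42.0, no filter, a mean normalized count over 50 and a replicate block. Others were an adjusted p of 0.01, removal of the length trend (lowess, span 0.3), a prior count of 0.5 and leaving out each library. A last one, chosen after seeing the data, added left-out subunits to the ratios of the origin recognition complex and of polymerases epsilon and delta.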

Additional observations from a re-analysis of the deposited data

Results flagged for a closer look

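A library lay far from the other 5 of its group, by Dixon's ratio at 95%, in 19 of 106 sets of 6 values (the 51 genes, their summed share of counts and the mitochondrial share, in each group), where chance gives about 1 in 20. In 17 of the 19 it was compressed replicate 6, whose gap from the other libraries went with transcript length. Replicate 6 was the far highest compressed library for Orc6 (34.3 CPM), Gmnn (57.5 CPM), Pold2 (57.6 CPM), Pcna (285 CPM), Rfc4 (31.2 CPM), Rpa3 (37.4 CPM), Fen1 (69.7 CPM), Tipin (78.6 CPM) and Dut (72.7 CPM). It was the far lowest for Mcm2 (73.4 CPM), Pola1 (17.8 CPM), Pole (16.7 CPM), Pold1 (43.4 CPM), Rfc1 (54.8 CPM), Wdhd1 (19.4 CPM), Timeless (25.8 CPM) and Clspn (18.6 CPM). Among the controls, replicate 2 was far lowest for Gins3 (29.8 CPM) and replicate 1 for Prim1 (43.5 CPM), both still above every compressed library of that gene.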

How the results depend on the processing

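Of 1020 log2 fold changes of the 51 genes under the alternatives, 1018 kept their direction and their side of the threshold, and the other 2 were Rpa3, called lower with the length trend removed and without compressed replicate 6. The count of the 51 called lower was 50 to 51 and their median -0.96 to -0.91 over single libraries left out, and 50 with a replicate block. The other nuclear replication genes called higher were 2 with the length trend removed and 1 to 3 with a library left out (3 without compressed replicate 6). The mitochondrial genes called lower were 5 at an adjusted p of 0.01, and 7 to 11 with a library left out (11 without compressed replicate 6). Of the 560 ratio values, 499 kept direction and side, 24 no longer passed, 16 newly passed and 21 changed sign. Libraries of the same replicate number did not deviate together (correlations of -0.12 to 0.04 across genes). Whether the numbers pair samples is not stated. These correlations cannot decide it, since a shared effect could be smaller than the other spread between libraries. With the replicate number as a block, by exact sign flips within pairs, 0 of 35 ratios passed, since the smallest p is then 0.0312 and the smallest adjusted p was 0.0643, while all 35 kept their sign. An alternative chosen after seeing the data added the left-out partners in the origin recognition complex and in polymerases epsilon and delta. With it the ratios of Orc1 (-0.33), Orc6 (-0.46) and Pold3 (-0.20) turned to losses. The other sign changes were in ratios near 0: with the length trend removed for Orc6 (-0.02), Rfc2 (0.05) and Rpa1 (0.08), and over libraries left out for Mcm2 (-0.03 to 0.02), Orc6 (-0.11 to 0.07), Rfc2 (-0.03 to 0.02), Rpa1 (-0.06 to 0.14) and Cdc7 over Dbf4 (-0.02 to 0.05). Ratios that passed were 22 to 29 over libraries left out.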
